A study of Mus musculus with 3 samples.

Results

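Vascular smooth muscle cells sorted as NG2+PDGFRβ+ (double-positive, DP) were compared with NG2-PDGFRβ- (double-negative, DN) stroma, gene family by gene family, in the mouse aorta-gonad-mesonephros region (AGM) at embryonic day 11 (E11). The comparison covered the 21994 nuclear protein-coding genes among the 47069 genes of the expression table. Of these, 10392 had a mean of at least 5 in DP and DN on the scale used here and are called measured. That scale is TPM, reads per length of transcript and per library, divided by the sum over nuclear protein-coding genes so that these add up to 1000000 in each library (rescaled TPM). All cells came from wild-type C57BL/6J embryos with no treatment, carried no CD31, CD45 or cKit on their surface at sorting, and were made into 1 library of full-length cDNA per population. By the labels DP are vascular smooth muscle cells, the NG2-PDGFRβ+ population (PDGFRβ-S) sub-vascular smooth muscle cells, and DN stroma. The study's text describes the sorted DN cells as low or negative for PDGFRβ, so DN may hold cells with some PDGFRβ. PDGFRβ-S is given beside DP and DN wherever single genes are described. With 1 library per population nothing was replicated, so p-values are not given and every difference describes these libraries. Neither the labels nor the methods of the study say how many cells a library holds.

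The dorsal aorta of the AGM is the vessel from which hematopoietic stem and progenitor cells (HSPCs) emerge. Its endothelium is wrapped by mural cells, of which smooth muscle cells contract by sliding actin over myosin, anchor that cytoskeleton to the matrix through integrins, and secrete much of the vessel wall. NG2, encoded by Cspg4, is a membrane proteoglycan of mural cells, and PDGFRβ is the receptor through which PDGF-B from the endothelium recruits them. In bulk libraries such as these, fewer cells of a type and less RNA per cell cannot be told apart.

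The genes of the sorted proteins followed the labels. Cspg4 had 18.6 rescaled TPM in DP, against 1.12 in PDGFRβ-S and 2.83 in DN, a DP/DN ratio of 6.55 (5.32 to 8.14), and Pdgfrb had 62.1 rescaled TPM in DP, against 33 in PDGFRβ-S and 15.8 in DN, a ratio of 3.93 (3.44 to 4.50). Intervals in parentheses are 95% exact binomial intervals from recovered reads, and they cover counting error only. Ptprc, which encodes CD45, was at 0 in the 3 libraries, Pecam1, which encodes CD31, was at 0.153 rescaled TPM in DP, against 0.0557 in PDGFRβ-S and 0 in DN, and Kit was at 2.12 rescaled TPM in DP, against 2.27 in PDGFRβ-S and 3.69 in DN. Reads on nuclear protein-coding genes came to 10375217 in DP, against 8887130 in PDGFRβ-S and 11038503 in DN. These genes held 56.55% of all TPM in DP, against 43.42% in PDGFRβ-S and 46.28% in DN, so the rescaling changed the libraries unequally.

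Markers of the cell types that an AGM sort can hold were summed per library. The 10 smooth muscle markers summed to 15032 rescaled TPM in DP, against 484 in PDGFRβ-S and 245 in DN, and 9 of the 9 measured were 2-fold higher in DP. Most of that sum was Acta2, with 11063 rescaled TPM in DP, against 341 in PDGFRβ-S and 182 in DN. The 10 pericyte and mural markers summed to 950.2 in DP, against 209 in PDGFRβ-S and 142 in DN. This mural list had 7 of 9 measured members 2-fold higher in DP, while Abcc9 was 2-fold lower and Notch3 was not 2-fold apart. It holds Cspg4 and Pdgfrb, the genes of the sorted proteins, so it is not separate from the sort. The label of DP as smooth muscle matched the genes of the smooth muscle list. Several other lists were higher in DN. The 19 sympathetic neuroblast markers summed to 51.2 in DP, against 33.3 in PDGFRβ-S and 678 in DN, with 10 of them at 0 in DP, among them Th, Dbh and Ret. Erythroid markers summed to 3138 in DP, against 44785 in PDGFRβ-S and 42515 in DN, and skeletal muscle markers to 273 in DP, against 379 in PDGFRβ-S and 627 in DN. Endothelial markers summed to 98.3 in DP, against 32.8 in PDGFRβ-S and 48.9 in DN, with 3 of the 5 measured 2-fold higher and 1 lower in DP, and Cdh5, Tie1 and Sox17 at 0 in both libraries. The 24 hematopoietic markers summed to 13 in DP, against 19.2 in PDGFRβ-S and 34.8 in DN, and none was measured. Markers of epithelium and nephric duct summed to 522.9 in DP, against 55.5 in PDGFRβ-S and 118.3 in DN, and 8 of these 19 were at 0 in DP. Markers of mesothelium and gonadal ridge summed to 301 in DP, against 109.8 in PDGFRβ-S and 227 in DN. The part of these other cell types in the family differences below was not tested.

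Of the 10392 measured genes, 1296 (12.5%) were 2-fold higher in DP and 2235 (21.5%) were 2-fold lower. At 4-fold the counts were 324 higher (3.12%) and 397 lower (3.82%), and 6861 genes (66.0%) were not 2-fold apart. Ratios were taken as log2 of rescaled TPM plus 1, and the median over measured genes was -0.22 (quartiles -0.89 and 0.45), against -0.27 for PDGFRβ-S over DN. The balance of higher against lower genes depended on the scale. Higher genes made up 36.7% of those 2-fold apart on rescaled TPM, but 62.15% with TPM as deposited (1540 higher, 938 lower), where the median of all genes was 0.11. The share was 50.52% after quantile normalization, 51.57% after centring in bins of GC content and exon length, and 54.12% after centring in bins of level. Family medians are therefore best read against the median of all genes. Most are given with their value after centring on GC content and length (centred median).

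A property that the families share is base composition. In 5 equal bins of the measured genes ordered from low to high GC content, the median log2 ratio of DP over DN was -0.75, -0.43, -0.19, 0.08 and 0.32. For PDGFRβ-S over DN the same bins gave -0.23, -0.26, -0.28, -0.29 and -0.28, with no such slope. In 5 bins of exon length from short to long, DP over DN gave -0.06, 0.10, -0.11, -0.36 and -0.70, against -0.07, -0.23, -0.28, -0.32 and -0.36 for PDGFRβ-S over DN. By mean level both ratios were lowest in the lowest of 5 bins, at -0.47 for DP over DN and -0.40 for PDGFRβ-S over DN. The part of base composition and length in any single family was not tested, and the centred values show how much of a median remained beside them.

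**Figure D1:**
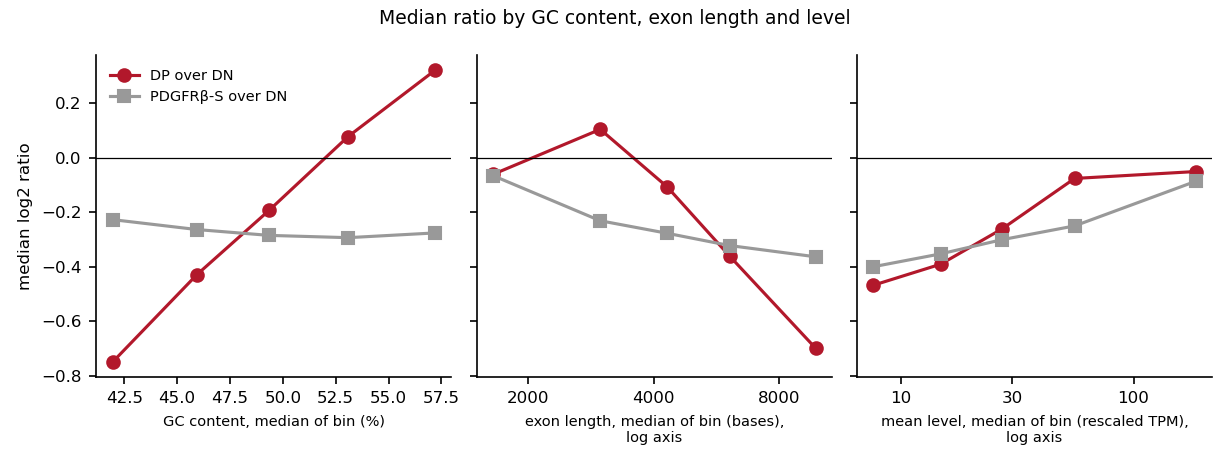
Median log2 ratio of measured genes (y axis) in 5 bins of GC content (left, percent), exon length (middle, bases, log axis) and mean level (right, rescaled TPM, log axis), for DP over DN (circles) and PDGFRβ-S over DN (squares). DP over DN climbs from -0.75 in the lowest to 0.32 in the highest bin of GC content, while PDGFRβ-S over DN stays between -0.23 and -0.29.

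The genes furthest above DN were led by the contractile program and by genes with other roles. Ankrd1, a stretch-responsive ankyrin-repeat protein of the muscle nucleus and sarcomere, had 402 rescaled TPM in DP, against 0 in PDGFRβ-S and 0 in DN. It was at least 2156-fold higher in DP, taking 3 reads in DN as the floor, as for all such bounds. Cnn1, the actin-binding calponin of smooth muscle, had 441 rescaled TPM in DP, against 11 in PDGFRβ-S and 0.556 in DN, and Actg2, the enteric smooth muscle actin, had 1664 rescaled TPM in DP, against 8.91 in PDGFRβ-S and 7.33 in DN. Actg2 and Acta2 are nearly identical in their coding sequence, and reads could be split between them. Fbln5, an organizer of elastic fibres, had 162 rescaled TPM in DP, against 21.3 in PDGFRβ-S and 1.28 in DN, a DP/DN ratio of 126 (78.7 to 217). Several genes without a muscle role stood in the same range. Rhox5, an X-linked reproductive homeobox gene, had 187 rescaled TPM in DP, against 8.13 in PDGFRβ-S and 2.68 in DN, and Sfn, the 14-3-3 sigma protein of epithelia, had 57.5 rescaled TPM in DP, against 0 in PDGFRβ-S and 1.09 in DN. Tinagl1, a matricellular relative of cathepsins, had 49 rescaled TPM in DP, against 2.17 in PDGFRβ-S and 0.197 in DN. In each of these genes PDGFRβ-S was nearer to DN than to DP on the linear scale.

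Contractile genes formed the family with the highest median. Of its 21 measured members, 19 were 2-fold higher in DP and 1 was 2-fold lower, with a median of 2.98 (centred 2.66), against 0.33 in PDGFRβ-S over DN. Together they took 2.42% of rescaled TPM in DP, against 0.460% in PDGFRβ-S and 0.301% in DN. Myl9, the regulatory light chain of smooth muscle myosin, had 2209 rescaled TPM in DP, against 397 in PDGFRβ-S and 173 in DN, a ratio of 12.8 (11.9 to 13.7). Myl6, the essential light chain found in most cells, had 5202 rescaled TPM in DP, against 3162 in PDGFRβ-S and 2130.0 in DN, a ratio of 2.44 (2.41 to 2.47). The exception was Mylk4, a kinase of the myosin light chain kinase family, with 11 rescaled TPM in DP, against 62.3 in PDGFRβ-S and 44.2 in DN.

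The actin-dependent partners of these genes were mostly higher too. LIM and PDZ-LIM adaptors, which link actin filaments to adhesions and carry signals to the nucleus, had 15 of 24 measured members 2-fold higher and 1 lower, with a median of 1.48 (centred 1.55). Lims2, or PINCH2, an adaptor of integrin-linked kinase, had 57.1 rescaled TPM in DP, against 0.888 in PDGFRβ-S and 0.520 in DN, while its relative Lims1 had 116.6 rescaled TPM in DP, against 179 in PDGFRβ-S and 180.1 in DN. The paralogs thus stood on opposite sides of DN, although Lims1 did not reach 2-fold. Csrp1, a LIM protein of smooth muscle, had 510.4 rescaled TPM in DP, against 75.1 in PDGFRβ-S and 60.6 in DN, a ratio of 8.43 (7.42 to 9.60). Among 54 actin regulators the median was 0.54 (centred 0.69), with 16 higher and 8 lower. Gsn, the actin-severing gelsolin, had 115 rescaled TPM in DP, against 6.13 in PDGFRβ-S and 8.47 in DN, and Cfl1, cofilin, had 4248 rescaled TPM in DP, against 1525 in PDGFRβ-S and 1694 in DN. Lower members included Enah, an elongation factor of filopodia, with 9.55 rescaled TPM in DP, against 36.7 in PDGFRβ-S and 41 in DN.

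Serum response factor binds the CArG box, a motif known from promoters of contractile genes. The 250 bases before the annotated start were searched in the RefSeq promoter table for both strands, and this table held windows for 236 of the 324 genes 4-fold higher in DP and for 278 of the 397 genes 4-fold lower. A CArG box was present in 2.41% of the 290 windows of the higher genes, in 1.15% of the 348 windows of the lower genes, in 1.18% of the windows of all measured genes and in 1.47% of all windows of the table. Windows of Myl9 and of Trpc6, a cation channel of smooth muscle, are shown with the match in capitals, since they belong to higher genes with a motif of the muscle program (GRCm38.p6, the RefSeq build; Myl9 at chr2:156775214-156775463, plus strand, Trpc6 at chr9:8543892-8544141, plus strand). They were chosen after the values had been seen.
Myl9: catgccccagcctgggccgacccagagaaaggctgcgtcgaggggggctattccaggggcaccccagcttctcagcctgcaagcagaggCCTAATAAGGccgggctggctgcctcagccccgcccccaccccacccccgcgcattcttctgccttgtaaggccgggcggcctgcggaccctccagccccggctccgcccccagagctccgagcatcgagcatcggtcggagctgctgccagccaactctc
Trpc6: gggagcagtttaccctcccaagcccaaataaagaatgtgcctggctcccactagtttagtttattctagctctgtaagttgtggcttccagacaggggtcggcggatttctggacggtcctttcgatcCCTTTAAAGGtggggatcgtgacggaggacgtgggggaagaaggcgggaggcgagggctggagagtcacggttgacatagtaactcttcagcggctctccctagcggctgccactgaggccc
The matches lie 161 to 152 bases before the start in Myl9 and 122 to 113 bases before it in Trpc6. The other motifs searched were the AP-1 site TGANTCA on both strands, in 6.90% of windows of the higher and 4.02% of the lower genes, against 3.96% of measured genes and 6.75% of the table, and the TATA box TATAAA on the gene's strand, in 6.55%, 8.05%, 3.69% and 7.59% in the same order. The GC box GGGCGG was in 57.9% of windows of the higher genes, 48.9% of the lower genes, 58.5% of measured genes and 32.7% of the table. A match is a run of letters and does not show that a factor was bound.

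**Figure D2:**
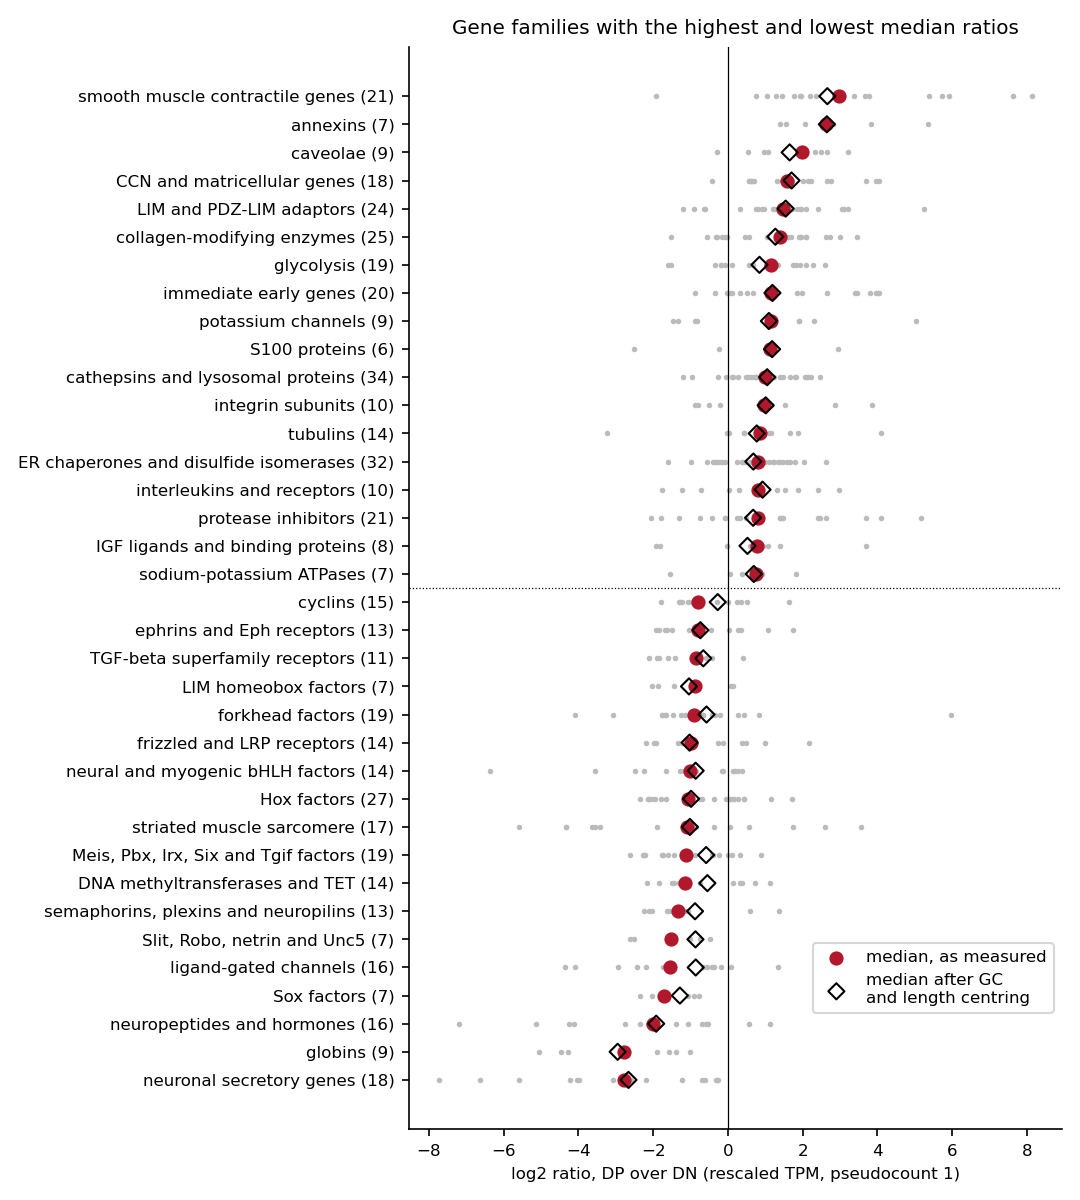
Log2 ratio of DP over DN (x axis, rescaled TPM with a pseudocount of 1) for the families of at least 6 measured members with the highest and the lowest medians, the number of measured members in parentheses. Grey points are single genes, filled circles family medians and open diamonds medians after centring on GC content and exon length, and contractile genes are highest at 2.98 while neuronal secretory genes and globins are lowest at -2.78 and -2.77.

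Annexins, calcium-dependent proteins that bind phospholipids at the inner face of the plasma membrane, were higher in DP throughout. Of 12 genes 7 were measured, and all 7 were 2-fold higher in DP, with a median of 2.63 (centred 2.65), and the family took 0.283% of rescaled TPM in DP, against 0.0561% in PDGFRβ-S and 0.0464% in DN. Anxa1 had 111 rescaled TPM in DP, against 2.12 in PDGFRβ-S and 1.75 in DN, a ratio of 63.4 (38.2 to 114). Anxa6, a membrane scaffold of contractile cells, had 689.9 rescaled TPM in DP, against 46 in PDGFRβ-S and 47.5 in DN, a ratio of 14.5 (13 to 16.3). Anxa2 and Anxa5 were abundant in all libraries and still higher in DP, Anxa2 with 759 rescaled TPM in DP, against 189 in PDGFRβ-S and 108 in DN and Anxa5 with 1069 rescaled TPM in DP, against 233 in PDGFRβ-S and 254 in DN. S100 proteins, calcium sensors that partner annexins, had 4 of 6 measured members 2-fold higher and 1 lower. Their partners S100a10 and S100a11 were high in PDGFRβ-S as well, S100a10 with 489 rescaled TPM in DP, against 389 in PDGFRβ-S and 219 in DN and S100a11 with 1488 rescaled TPM in DP, against 1330.5 in PDGFRβ-S and 695 in DN. The S100 median of 1.12 in DP over DN turned negative once members at lower levels were included.

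Caveolae, the flask-shaped pits that are dense in smooth muscle membrane, showed the same pattern. Of 9 measured genes 6 were 2-fold higher and 0 lower, with a median of 1.99 (centred 1.65), against -0.67 in PDGFRβ-S over DN. Cav1, the coat protein of the pit, had 71.4 rescaled TPM in DP, against 3.20 in PDGFRβ-S and 10.5 in DN, a ratio of 6.82 (5.88 to 7.95). Ptrf, or cavin-1, had 21.3 rescaled TPM in DP, against 3.73 in PDGFRβ-S and 1.37 in DN, and Prkcdbp, or cavin-3, had 276 rescaled TPM in DP, against 35.2 in PDGFRβ-S and 53.8 in DN. Integrins had 5 of 10 measured subunits 2-fold higher and 0 lower, with a median of 0.96 (centred 1.01). Itga1, the collagen-binding alpha 1 subunit, had 94.6 rescaled TPM in DP, against 5.01 in PDGFRβ-S and 5.57 in DN, a ratio of 17 (15 to 19.3), and Itga5, the fibronectin-binding alpha 5 subunit, had 80.3 rescaled TPM in DP, against 9.01 in PDGFRβ-S and 10.1 in DN, a ratio of 7.93 (6.44 to 9.86). Itga8 and Itgav were not higher in DP, Itga8 with 11.6 rescaled TPM in DP, against 20.7 in PDGFRβ-S and 16.8 in DN and Itgav with 10.9 rescaled TPM in DP, against 26 in PDGFRβ-S and 19.7 in DN. Cadherins were few, and Cdh3, P-cadherin, with 98.1 rescaled TPM in DP, against 6.66 in PDGFRβ-S and 14 in DN, was the one measured member 2-fold higher.

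Intermediate filaments and tubulins also differed by member. Of 47 keratin genes only 4 were measured, and 3 of these, the simple-epithelial Krt8, Krt18 and Krt19, were 2-fold higher in DP. Krt8 had 265 rescaled TPM in DP, against 11.3 in PDGFRβ-S and 18 in DN, a ratio of 14.7 (11.6 to 18.9), Krt18 had 154 rescaled TPM in DP, against 16.1 in PDGFRβ-S and 31 in DN, and Krt19 had 53.9 rescaled TPM in DP, against 2.78 in PDGFRβ-S and 6.39 in DN. The epithelial list holds these keratins itself, and they make up most of its sum in DP. They are the 3 of its 7 measured members that were 2-fold higher, and 0 were 2-fold lower. Other members went both ways. Cldn3 and Cldn7, both too low to be measured, were higher in DP, Cldn3 with 6.17 rescaled TPM in DP, against 0 in PDGFRβ-S and 0 in DN and Cldn7 with 2.66 rescaled TPM in DP, against 0 in PDGFRβ-S and 0.537 in DN. Cldn6 was lower, with 7.28 rescaled TPM in DP, against 0 in PDGFRβ-S and 13.4 in DN. Lhx1 and Ret were at 0 in DP, against 0 and 0.286 in PDGFRβ-S and 5.56 and 9.30 in DN. Epcam had 11.2 rescaled TPM in DP, against 8.82 in PDGFRβ-S and 19.6 in DN, while Cdh1, Cldn4, Esrp1 and Grhl2 were at 0 in DP and under 1 in DN. Krt19 is in the mesothelial list too, where Upk3b, a uroplakin of mesothelium, had 48.9 rescaled TPM in DP, against 4.25 in PDGFRβ-S and 10.9 in DN. Krt19 and Upk3b were the 2 of its 10 measured members that were 2-fold higher, and the median log2 ratio of that list was -0.03. The part of either cell type in the keratin levels was not tested. Vim, the filament of mesenchyme, had 283 rescaled TPM in DP, against 70.8 in PDGFRβ-S and 55.2 in DN, and Lmna, which encodes lamin A and C, had 29.9 rescaled TPM in DP, against 1.28 in PDGFRβ-S and 1.39 in DN, a ratio of 21.5 (15 to 32). Tubulins took 3.22% of rescaled TPM in DP, against 1.25% in PDGFRβ-S and 1.70% in DN. Most of this was Tuba1a, Tuba1b and Tuba1c, which are nearly identical to one another and share reads. Tubb6, a beta-tubulin of muscle and other non-neuronal cells, had 823 rescaled TPM in DP, against 42.4 in PDGFRβ-S and 47.2 in DN, a ratio of 17.4 (15.7 to 19.4), whereas Tubb3, the beta-tubulin of neurons, had 10.8 rescaled TPM in DP, against 1.87 in PDGFRβ-S and 109 in DN, a ratio of 0.0988 (0.0708 to 0.135). The beta-tubulins of muscle and nerve thus stood in opposite order.

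Receptors that set vascular tone were among the largest differences, although the family of hormone and neurotransmitter receptors as a whole was mixed (8 of 26 measured members 2-fold higher and 11 lower). Its median of -0.73 (centred -0.18) turned positive with TPM as deposited and among genes with a mean of at least 20. Tbxa2r, the thromboxane receptor that constricts vessels, had 64.3 rescaled TPM in DP, against 4.53 in PDGFRβ-S and 1.24 in DN, a ratio of 51.7 (21.9 to 161). Avpr1a, the vasopressin V1a receptor, had 30.3 rescaled TPM in DP, against 5.61 in PDGFRβ-S and 1.31 in DN, a ratio of 23.1 (11.4 to 54.2). Other receptors of the family were lower. Agtr2, the angiotensin type 2 receptor of fetal mesenchyme, had 27.7 rescaled TPM in DP, against 63.7 in PDGFRβ-S and 217 in DN, a ratio of 0.127 (0.110 to 0.147), and Cnr1, the cannabinoid receptor, had 0 rescaled TPM in DP, against 0.608 in PDGFRβ-S and 10.6 in DN. Olfr78, an olfactory receptor known from vascular smooth muscle, had 17.52 rescaled TPM in DP, against 0 in PDGFRβ-S and 0 in DN, and was at least 139.6-fold higher in DP. Rgs5, a pericyte brake on G protein signalling, had 199 rescaled TPM in DP, against 70.7 in PDGFRβ-S and 31.2 in DN, while Rgs2 and Rgs4 were lower, Rgs2 with 10.7 rescaled TPM in DP, against 34.6 in PDGFRβ-S and 63.6 in DN and Rgs4 with 6.53 rescaled TPM in DP, against 2.84 in PDGFRβ-S and 34.6 in DN.

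Channels and cyclases of the same pathway differed gene by gene. Kcns3, a modifier subunit of voltage-gated potassium channels, had 116.7 rescaled TPM in DP, against 8.49 in PDGFRβ-S and 2.58 in DN, a ratio of 45.2 (32.5 to 64.8). Kcnmb1, the smooth muscle beta subunit of the calcium-activated potassium channel, had 18.9 rescaled TPM in DP, against 2.26 in PDGFRβ-S and 3.04 in DN, and Kcnj8, the inward rectifier of mural cells, had 17.2 rescaled TPM in DP, against 8.92 in PDGFRβ-S and 3.82 in DN. Abcc9, the sulfonylurea subunit that pairs with Kcnj8, went the other way, with 18 rescaled TPM in DP, against 54.9 in PDGFRβ-S and 49.96 in DN. Trpc6 had 11.3 rescaled TPM in DP, against 5.28 in PDGFRβ-S and 0 in DN, and was at least 52.1-fold higher in DP. Of 9 measured potassium channel genes 5 were 2-fold higher and 2 lower, but the median of 1.15 turned negative when channels at lower levels were included. Gucy1b3, a subunit of the nitric oxide receptor guanylate cyclase, had 36.9 rescaled TPM in DP, against 5.41 in PDGFRβ-S and 10.03 in DN, a ratio of 3.68 (3.03 to 4.50). It was the 1 of 7 measured adenylate and guanylate cyclases that was 2-fold higher, while 2 were lower, with a median of 0.20 (centred 0.47).

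Several families of the secretory route had medians above that of all genes. Among 32 endoplasmic reticulum (ER) chaperones and disulfide isomerases, 11 were 2-fold higher and 1 lower, with a median of 0.82 (centred 0.68). They took 1.02% of rescaled TPM in DP, against 0.453% in PDGFRβ-S and 0.537% in DN. Hspa5, or BiP, the main Hsp70 of the ER, had 894 rescaled TPM in DP, against 193 in PDGFRβ-S and 259 in DN, a ratio of 3.46 (3.34 to 3.58), and Pdia4, a disulfide isomerase, had 569 rescaled TPM in DP, against 83.5 in PDGFRβ-S and 138 in DN, a ratio of 4.12 (3.82 to 4.44). Atf6, a sensor of unfolded protein, had 4.75 rescaled TPM in DP, against 8.51 in PDGFRβ-S and 10.4 in DN. COPI and COPII coats had 7 of 21 measured members 2-fold higher and 0 lower, with a median of 0.49 (centred 0.85). One of the higher coat genes was Sec24d, a cargo adaptor needed for collagen export in zebrafish, with 37.1 rescaled TPM in DP, against 13.2 in PDGFRβ-S and 9.90 in DN. In contrast, the translocon and glycosylation genes had a median of -0.24 (centred 0.14), close to all genes.

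Enzymes that modify and cross-link collagen followed the chaperones. Of 25 measured, 16 were 2-fold higher and 1 was lower, with a median of 1.39 (centred 1.27). Serpinh1, the collagen chaperone Hsp47, had 599 rescaled TPM in DP, against 97.9 in PDGFRβ-S and 96.5 in DN, a ratio of 6.21 (5.90 to 6.54), and Pcolce, which enhances the trimming of procollagen, had 219 rescaled TPM in DP, against 35.3 in PDGFRβ-S and 18.9 in DN, a ratio of 11.6 (10.3 to 13.1). Plod2, a lysyl hydroxylase, was the lower member, with 33.4 rescaled TPM in DP, against 65.5 in PDGFRβ-S and 98.1 in DN. Collagen chains themselves were split, 10 higher and 6 lower of 23, with a median of 0.48 (centred 1.00) that turned negative when chains at lower levels were included. Col1a1 had 434 rescaled TPM in DP, against 47.8 in PDGFRβ-S and 26.5 in DN, a ratio of 16.4 (14.8 to 18.1), while Col2a1, the chain of cartilage, had 25.9 rescaled TPM in DP, against 46.1 in PDGFRβ-S and 104 in DN, a ratio of 0.2498 (0.231 to 0.270). Sclerotome markers, from which cartilage comes, summed to 116 rescaled TPM in DP, against 215 in PDGFRβ-S and 321 in DN.

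Matricellular proteins, which signal from the matrix rather than build it, were 2-fold higher in 11 of 18 measured genes and lower in 0, with a median of 1.59 (centred 1.71). Cyr61 and Ctgf, the CCN proteins induced by stretch and by YAP, had 393 rescaled TPM in DP, against 62.4 in PDGFRβ-S and 24.3 in DN for Cyr61 and 71.3 rescaled TPM in DP, against 2.63 in PDGFRβ-S and 3.41 in DN for Ctgf. The DP/DN ratios were 16.1 (13.3 to 19.7) for Cyr61 and 20.9 (15 to 29.9) for Ctgf. Sparc, a collagen-binding glycoprotein, had 1476 rescaled TPM in DP, against 199.8 in PDGFRβ-S and 216 in DN, a ratio of 6.84 (6.54 to 7.16). Proteoglycan genes differed sharply between members. Gpc4, a glypican, had 195 rescaled TPM in DP, against 8.10 in PDGFRβ-S and 13.1 in DN, a ratio of 14.9 (11.9 to 19), and Chst12, a chondroitin sulfotransferase, had 122 rescaled TPM in DP, against 2.42 in PDGFRβ-S and 4.53 in DN, a ratio of 27 (18.9 to 39.7). Chst11, a sulfotransferase with the same substrate, had 3.64 rescaled TPM in DP, against 3.25 in PDGFRβ-S and 26.7 in DN, and Has2, the hyaluronan synthase of embryonic mesenchyme, had 1.08 rescaled TPM in DP, against 19.5 in PDGFRβ-S and 32 in DN. Chst11 and Has2 were thus lower in DP where Chst12 was higher.

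Lysosomal genes were 2-fold higher in 17 of 34 measured and lower in 1, with a median of 0.98 (centred 1.05) against -0.31 in PDGFRβ-S over DN. Their share was 0.397% of rescaled TPM in DP, against 0.157% in PDGFRβ-S and 0.187% in DN. Ctsd, an aspartic protease of the lysosome, had 237 rescaled TPM in DP, against 16.6 in PDGFRβ-S and 52.9 in DN, a ratio of 4.49 (4.06 to 4.97). Lamp1, its membrane glycoprotein, had 578 rescaled TPM in DP, against 143 in PDGFRβ-S and 207 in DN, a ratio of 2.79 (2.60 to 3.00). The proton pump that acidifies the compartment did not share this, since 1 of 17 measured V-ATPase subunits was 2-fold higher, with a median of -0.17 (centred 0.20). Proteasome subunits were near equal in share, at 1.70% in DP, against 1.70% in PDGFRβ-S and 1.75% in DN.

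Central carbon metabolism split by pathway. Glycolysis had 10 of 19 measured genes 2-fold higher and 2 lower, with a median of 1.17 (centred 0.85), and PDGFRβ-S lay below DN, at -0.70. Slc2a1, the glucose transporter GLUT1, had 99.6 rescaled TPM in DP, against 7.65 in PDGFRβ-S and 15.5 in DN, a ratio of 6.44 (5.51 to 7.57), and Pkm, pyruvate kinase, had 1774 rescaled TPM in DP, against 165 in PDGFRβ-S and 361 in DN, a ratio of 4.91 (4.78 to 5.04). Hk2, an inducible hexokinase, and Pdk1, which closes the entry to the mitochondrion, were the lower members, Hk2 with 7.13 rescaled TPM in DP, against 14.7 in PDGFRβ-S and 23.5 in DN and Pdk1 with 5.87 rescaled TPM in DP, against 9.68 in PDGFRβ-S and 18.9 in DN. The tricarboxylic acid cycle had 7 of 25 genes 2-fold higher and 0 lower, with a median of 0.48 (centred 0.79). Idh2, mitochondrial isocitrate dehydrogenase, had 461 rescaled TPM in DP, against 133 in PDGFRβ-S and 121 in DN. Its cytosolic relative Idh1 did not share this, with 157 rescaled TPM in DP, against 108 in PDGFRβ-S and 204 in DN. Serine and one-carbon synthesis was led by Phgdh, the entry enzyme of serine synthesis, with 548 rescaled TPM in DP, against 90.4 in PDGFRβ-S and 149 in DN, a ratio of 3.68 (3.43 to 3.95).

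Nuclear genes of the respiratory chain, in contrast, had a median of -0.15 (centred -0.05), with 7 of 81 higher and 5 lower. Single members of different complexes differed in both directions. Atp5b, the catalytic beta subunit of ATP synthase, had 1132 rescaled TPM in DP, against 249 in PDGFRβ-S and 388 in DN, a ratio of 2.92 (2.84 to 3.01), while Uqcrb and Cox7b, small subunits of complexes III and IV, had 606 rescaled TPM in DP, against 1864 in PDGFRβ-S and 1274 in DN for Uqcrb and 286 rescaled TPM in DP, against 989 in PDGFRβ-S and 703 in DN for Cox7b. Redox genes of the glutathione and thioredoxin systems mostly did not differ. Of 50 measured 4 (8%) were 2-fold higher and 5 (10%) lower, against 12.5% and 21.5% of all measured genes. Their median was 0.24 (centred 0.15). The highest ratio was that of Gpx3, the secreted glutathione peroxidase, with 358 rescaled TPM in DP, against 65.1 in PDGFRβ-S and 36.8 in DN, a ratio of 9.74 (8.41 to 11.3). Metallothioneins were lower, Mt1 with 3.39 rescaled TPM in DP, against 39.8 in PDGFRβ-S and 39.8 in DN, a ratio of 0.0851 (0.0477 to 0.142). Retinoid enzymes were higher at the step that makes retinoic acid, where Aldh1a2 had 486 rescaled TPM in DP, against 199 in PDGFRβ-S and 161 in DN, a ratio of 3.02 (2.79 to 3.28). Rdh10, which makes retinal for that step, was lower in DP, with 22.9 rescaled TPM in DP, against 78.8 in PDGFRβ-S and 71.6 in DN, a ratio of 0.320 (0.279 to 0.367).

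In the translation apparatus, the tRNA synthetases stood further above DN than the other factors or the ribosome. Aminoacyl-tRNA synthetases were 2-fold higher in 14 of 36 measured genes and lower in 0, with a median of 0.69 (centred 0.90). Kars, the lysyl-tRNA synthetase, had 362 rescaled TPM in DP, against 76.6 in PDGFRβ-S and 92.3 in DN, a ratio of 3.93 (3.67 to 4.20). Initiation and elongation factors had 11 of 63 higher and 4 lower, with a median of -0.003 (centred 0.40). They took 2.15% of rescaled TPM in DP, against 1.25% in PDGFRβ-S and 1.48% in DN, and Eef2, the translocation factor, had 757 rescaled TPM in DP, against 114 in PDGFRβ-S and 190.2 in DN, a ratio of 3.98 (3.75 to 4.23). Nucleolar biogenesis genes had 14 of 51 higher and 2 lower, with a median of 0.35 (centred 0.51), led by Rrp1, with 393 rescaled TPM in DP, against 46.8 in PDGFRβ-S and 50.03 in DN. Cytosolic ribosomal proteins had a median of -0.09 (centred -0.11), with 2 of 83 higher and 5 lower, and took 7.61% in DP, against 9.57% in PDGFRβ-S and 7.76% in DN. Rplp0, the stalk protein, and Rpl4 were the higher pair, Rplp0 with 2711 rescaled TPM in DP, against 1033 in PDGFRβ-S and 1158 in DN and Rpl4 with 4852 rescaled TPM in DP, against 1947 in PDGFRβ-S and 2138 in DN, while Rpl39, one of the shortest ribosomal proteins, had 287 rescaled TPM in DP, against 1497 in PDGFRβ-S and 905 in DN. Mitochondrial ribosomal proteins had 0 of 76 higher and 3 lower.

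**Figure D3:**
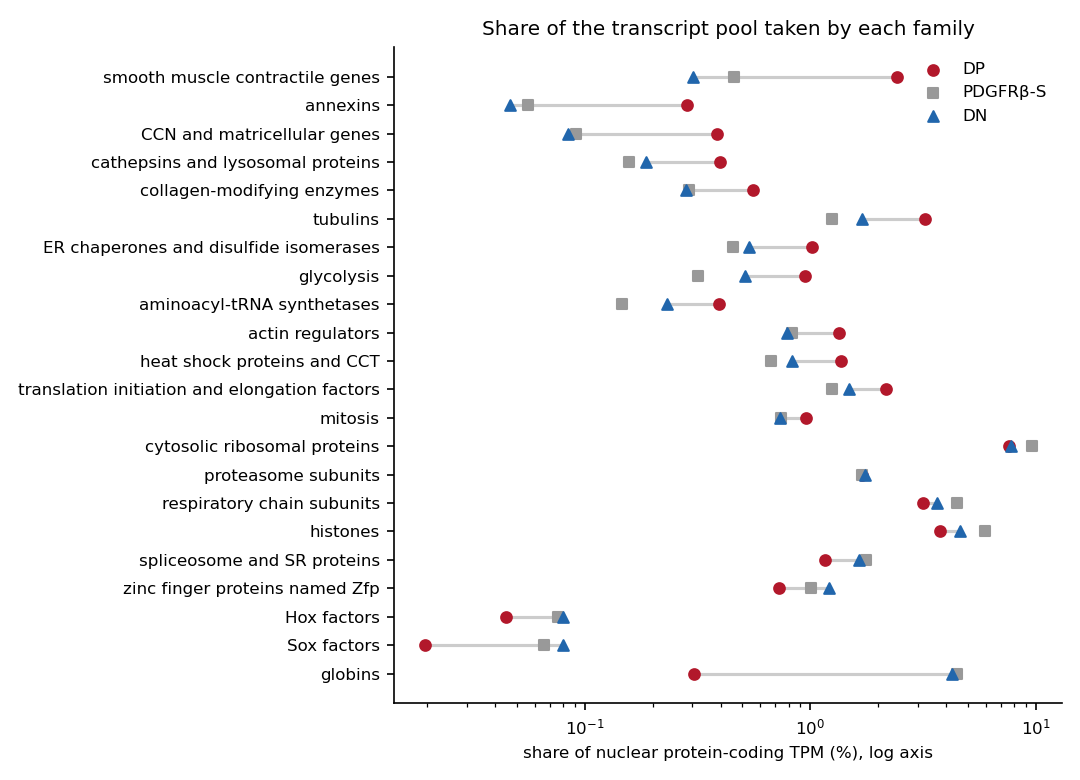
Share of rescaled TPM (x axis, percent, log axis) taken by each family (y axis) in DP (circles), PDGFRβ-S (squares) and DN (triangles), 1 library each. Contractile genes held 2.42% in DP and 0.301% in DN, globins 0.305% in DP and 4.24% in DN, and cytosolic ribosomal proteins 7.61% in DP and 7.76% in DN.

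Cell cycle genes leaned towards DP in mitosis and replication, though most were not 2-fold apart. Of 68 mitotic genes 11 (16.2%) were 2-fold higher and 0 lower, with a median of 0.20 (centred 0.56). Of 50 replication genes 12 (24%) were higher and 1 (2%) was lower, with a median of 0.30 (centred 0.39). Among all measured genes 12.5% were higher and 21.5% lower, so the higher share in mitosis was near that of all genes. Cdc20, the activator of the anaphase-promoting complex, had 659 rescaled TPM in DP, against 94.1 in PDGFRβ-S and 119.6 in DN, a ratio of 5.51 (5.06 to 6.01), and Plk1, the mitotic kinase, had 253 rescaled TPM in DP, against 58.7 in PDGFRβ-S and 77.8 in DN, a ratio of 3.25 (2.96 to 3.58). Mcm6, a subunit of the replicative helicase, had 280.0 rescaled TPM in DP, against 54.1 in PDGFRβ-S and 100.3 in DN. Not every proliferation gene followed, since Birc5, survivin, had 276 rescaled TPM in DP, against 323 in PDGFRβ-S and 282 in DN, and Cdk1 had 308 rescaled TPM in DP, against 232 in PDGFRβ-S and 231 in DN. Among cyclins, Ccnd3 was the one 2-fold higher, with 102 rescaled TPM in DP, against 20.6 in PDGFRβ-S and 32.2 in DN, while Ccnd1 had 73.4 rescaled TPM in DP, against 78.2 in PDGFRβ-S and 179 in DN, a ratio of 0.410 (0.375 to 0.449). The cell cycle inhibitors differed too. Cdkn1c, or p57, an imprinted inhibitor, had 575 rescaled TPM in DP, against 163 in PDGFRβ-S and 247 in DN, a ratio of 2.33 (2.24 to 2.43), while Cdkn1a, or p21, had 2.23 rescaled TPM in DP, against 0 in PDGFRβ-S and 18.4 in DN, a ratio of 0.121 (0.0801 to 0.177).

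Histone genes had 0 of 71 measured members 2-fold higher, against 12.5% of all measured genes. The 18 lower members made up 25.4%, near the 21.5% of all measured genes. The histone median was -0.80 (centred -0.75), against 0.23 in PDGFRβ-S over DN. Histone genes held 3.76% of rescaled TPM in DP, against 5.93% in PDGFRβ-S and 4.60% in DN. H2afz, the replication-independent variant H2A.Z, had 2118 rescaled TPM in DP, against 4298 in PDGFRβ-S and 3883 in DN, and many clustered histone genes are near copies of each other whose reads cannot be assigned with certainty. H1f0, the linker histone of slowly dividing cells, stood on the other side, with 261 rescaled TPM in DP, against 122 in PDGFRβ-S and 148 in DN. DNA methyltransferases, TET enzymes and methyl-CpG proteins had a median of -1.16 (centred -0.55), which turned positive with TPM as deposited and among genes with a mean of at least 20. Dnmt1, the maintenance enzyme, was not 2-fold apart, with 74.9 rescaled TPM in DP, against 45.7 in PDGFRβ-S and 59.3 in DN, while Tet1, which oxidizes methylcytosine, had 2.07 rescaled TPM in DP, against 6.41 in PDGFRβ-S and 9.99 in DN. Hmga2, an architectural protein of fetal and undifferentiated cells, had 126 rescaled TPM in DP, against 662 in PDGFRβ-S and 531 in DN, a ratio of 0.238 (0.227 to 0.2499), and its relative Hmga1 had 77.2 rescaled TPM in DP, against 32.6 in PDGFRβ-S and 51.8 in DN. Among Hmga paralogs only Hmga2 was 2-fold apart.

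Secreted signals differed in kind more than in number. Inhba, which encodes the activin A subunit, had 57.7 rescaled TPM in DP, against 4.19 in PDGFRβ-S and 4.12 in DN, a ratio of 14 (11.2 to 17.7), and Tgfb3 had 118 rescaled TPM in DP, against 16.4 in PDGFRβ-S and 12.4 in DN, a ratio of 9.50 (7.69 to 11.9). Bmp4, a bone morphogenetic protein, was closer between libraries, with 106 rescaled TPM in DP, against 95 in PDGFRβ-S and 75.6 in DN, a ratio of 1.40 (1.26 to 1.55). Over the whole superfamily 3 of 11 measured ligands were 2-fold higher and 5 lower, with a median of 0.16 (centred 0.42). Of its 11 measured receptors 0 were 2-fold higher and 5 lower, with a median of -0.86 (centred -0.66). Tgfbr1 had 27.4 rescaled TPM in DP, against 96.4 in PDGFRβ-S and 101 in DN, and the activin receptor Acvr2a had 10.1 rescaled TPM in DP, against 33.4 in PDGFRβ-S and 47 in DN. Wnt2 had 134.2 rescaled TPM in DP, against 36.1 in PDGFRβ-S and 11.3 in DN, a ratio of 11.9 (9.08 to 15.8), whereas Wnt5a, a ligand of the non-canonical pathway, had 7.58 rescaled TPM in DP, against 30.5 in PDGFRβ-S and 28.6 in DN. Receptors of the frizzled and LRP families were lower in 6 of 14 and higher in 1, among them Fzd3, with 19.9 rescaled TPM in DP, against 51.1 in PDGFRβ-S and 78.1 in DN. For TGF-beta ligands the family median stood near 0, and its sign changed when lower levels were included.

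Growth factors of vessels and mesenchyme divided the same way. Angpt2, the angiopoietin that antagonizes Tie2 in most settings, had 166 rescaled TPM in DP, against 17.7 in PDGFRβ-S and 8.98 in DN, a ratio of 18.5 (14.7 to 23.5), while Angpt1, its agonist, had 19 rescaled TPM in DP, against 50.8 in PDGFRβ-S and 41 in DN, a ratio of 0.463 (0.386 to 0.555). Figf, or VEGF-D, was higher, with 28.8 rescaled TPM in DP, against 12.1 in PDGFRβ-S and 6.14 in DN, and Pdgfc lower, with 19.5 rescaled TPM in DP, against 28.1 in PDGFRβ-S and 63.2 in DN. Flt1, VEGF receptor 1, had 18.4 rescaled TPM in DP, against 0.347 in PDGFRβ-S and 0.152 in DN, a ratio of 120.5 (51.3 to 372). Other endothelial markers went both ways, and of the 5 measured 3 were 2-fold higher and 1 was lower. The higher ones besides Flt1 were Ecscr with 33.5 rescaled TPM in DP, against 7.99 in PDGFRβ-S and 0.195 in DN and Esam with 11.7 rescaled TPM in DP, against 0.3003 in PDGFRβ-S and 2.11 in DN. The lower one was Sox18, with 3.39 rescaled TPM in DP, against 0.308 in PDGFRβ-S and 8.12 in DN. Among markers not measured, Cdh5 and Tie1 were at 0 in DP and in DN. Cldn5 had 0 in DP, against 0 in PDGFRβ-S and 9.62 in DN, and Clec14a 0.101 in DP, against 3.85 in PDGFRβ-S and 6.86 in DN. The part of endothelium in the Flt1 level was not tested. All 4 measured FGF ligands were 2-fold lower in DP, for example Fgf9, with 1.95 rescaled TPM in DP, against 6.19 in PDGFRβ-S and 15.8 in DN, and Fgf10, with 5.19 rescaled TPM in DP, against 8.26 in PDGFRβ-S and 13.9 in DN. Igf1 had 25.9 rescaled TPM in DP, against 111 in PDGFRβ-S and 102 in DN, a ratio of 0.255 (0.235 to 0.276), while Igf2 had 318 rescaled TPM in DP, against 155 in PDGFRβ-S and 119 in DN, a ratio of 2.67 (2.57 to 2.77). Their binding proteins also split. Igfbp7, a matrix-bound form, had 143 rescaled TPM in DP, against 28.5 in PDGFRβ-S and 10.1 in DN, and Igfbp5 had 49.1 rescaled TPM in DP, against 144 in PDGFRβ-S and 176 in DN.

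Notch, a pathway by which the endothelium drives smooth muscle differentiation, differed by member among targets, receptors and ligands. Of 9 measured Id, Hes and Hey factors, which hold targets of Notch and of BMP signals, 2 were 2-fold higher and 1 was lower, and their median of 0.10 turned to -0.18 after centring and was negative under each of the other limits on level. Heyl, a target and transcriptional repressor, had 167 rescaled TPM in DP, against 3.30 in PDGFRβ-S and 4.88 in DN, a ratio of 34.3 (26.5 to 45.2), Hey2 had 33.2 rescaled TPM in DP, against 6.27 in PDGFRβ-S and 3.96 in DN, and Nrarp, a feedback inhibitor, had 35.6 rescaled TPM in DP, against 5.22 in PDGFRβ-S and 1.02 in DN, a ratio of 34.9 (15.8 to 96.2). Jag1, a ligand, had 65.7 rescaled TPM in DP, against 39.1 in PDGFRβ-S and 23.2 in DN, and Notch2 had 12.8 rescaled TPM in DP, against 29.8 in PDGFRβ-S and 22.9 in DN. Over the 9 measured receptors, ligands and cofactors 3 were 2-fold higher and 2 lower, and the sign of their median of -0.19 changed with TPM as deposited, quantile normalization and level centring. Id1 and Id2, targets of BMP signals, were below DN without reaching 2-fold, Id1 with 138 rescaled TPM in DP, against 288 in PDGFRβ-S and 259.8 in DN and Id2 with 973 rescaled TPM in DP, against 2247 in PDGFRβ-S and 1921 in DN.

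Immediate early genes, which respond within minutes to growth factors and stress, were 2-fold higher in 12 of 20 measured and lower in 0, with a median of 1.16 (centred 1.19). This family shares at least Ctgf, its highest member, with the matricellular genes above, so the counts of these families are not separate. Atf3 had 18 rescaled TPM in DP, against 0.390 in PDGFRβ-S and 0.171 in DN, with 1 read in DN and a ratio of 105 (18.5 to 4197), Nr4a1 had 17.7 rescaled TPM in DP, against 0.202 in PDGFRβ-S and 3.72 in DN, and Dusp1, a phosphatase of MAP kinases, had 56.8 rescaled TPM in DP, against 9.81 in PDGFRβ-S and 8.10 in DN. Ier2, of the same class, had 114 rescaled TPM in DP, against 84.7 in PDGFRβ-S and 116 in DN. Among small heat shock proteins, Hspb1, a chaperone of actin, had 636 rescaled TPM in DP, against 29.2 in PDGFRβ-S and 23.9 in DN, a ratio of 26.6 (21.8 to 32.8), and Cryab, alpha B-crystallin, had 230.3 rescaled TPM in DP, against 11 in PDGFRβ-S and 52.6 in DN, while Hspb7 had 5.78 rescaled TPM in DP, against 15.9 in PDGFRβ-S and 26.6 in DN. Tnfrsf12a, the TWEAK receptor, had 154 rescaled TPM in DP, against 4.67 in PDGFRβ-S and 18.7 in DN, a ratio of 8.26 (7.02 to 9.78), and Rela, a subunit of NF-κB, had 99 rescaled TPM in DP, against 31.1 in PDGFRβ-S and 8.88 in DN, a ratio of 11.1 (9.16 to 13.7). Fas, the death receptor, differed from these in being as high in PDGFRβ-S, with 29.2 rescaled TPM in DP, against 32.2 in PDGFRβ-S and 2.92 in DN.

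Several families of developmental transcription factors were lower in DP, and others were not. T-box factors had 2 of 9 2-fold higher and 2 lower, with a median of -0.25, paired-type and NK homeobox factors 4 of 18 higher and 5 lower, with a median of -0.02, and none of 4 measured Gata factors was 2-fold apart. Sox factors had 0 of 7 measured members 2-fold higher and 5 lower, with a median of -1.70 (centred -1.28), and took 0.0195% of rescaled TPM in DP, against 0.0659% in PDGFRβ-S and 0.0804% in DN. Sox11 had 98.8 rescaled TPM in DP, against 405 in PDGFRβ-S and 504 in DN, a ratio of 0.196 (0.186 to 0.206), and Sox4 had 43.5 rescaled TPM in DP, against 164 in PDGFRβ-S and 149 in DN, a ratio of 0.291 (0.262 to 0.323), both being members of the SoxC group of immature mesenchyme and neurons. Sox9, the factor of chondrocyte precursors, had 23.2 rescaled TPM in DP, against 56.7 in PDGFRβ-S and 77.5 in DN. Hox factors, which give cells their position along the axis, had 2 of 27 higher and 14 lower, with a median of -1.07 (centred -0.98). Hoxd11 had 22.3 rescaled TPM in DP, against 123.5 in PDGFRβ-S and 99.9 in DN, a ratio of 0.223 (0.192 to 0.258). Homeobox factors of the Meis, Pbx, Irx and Tgif type, with their relatives, were 2-fold lower in 11 of 19 and higher in 0, with a median of -1.12 (centred -0.58).

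Forkhead factors spanned a wide range. Of 19 measured members 9 were 2-fold lower and 1 was higher, with a median of -0.90 (centred -0.57). The higher one was Foxs1, known from mural cells, with 61.7 rescaled TPM in DP, against 1.14 in PDGFRβ-S and 0 in DN, and it was at least 61.5-fold higher in DP. Foxf2 and Foxl1, factors of mesenchyme under epithelium, were lower, Foxf2 with 6.58 rescaled TPM in DP, against 27.5 in PDGFRβ-S and 63.1 in DN, a ratio of 0.104 (0.0710 to 0.148), and Foxl1 with 33.6 rescaled TPM in DP, against 114 in PDGFRβ-S and 116 in DN, a ratio of 0.291 (0.247 to 0.341). Myocd, the cofactor of serum response factor that drives smooth muscle genes, had 25.5 rescaled TPM in DP, against 3.70 in PDGFRβ-S and 4.17 in DN, a ratio of 6.12 (5.02 to 7.51). The 271 measured Zfp genes, most of them DNA-binding repressors, had 9 2-fold higher and 96 lower, and their median of -0.75 became -0.25 after centring.

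Guidance genes, which steer axons and migrating cells, were more often lower than higher. Semaphorins, plexins and neuropilins had 1 of 13 measured members 2-fold higher and 11 lower, with a median of -1.34 (centred -0.88), and Slit, Robo, netrin and Unc5 genes had 0 of 7 higher and 5 lower, with a median of -1.51 (centred -0.87). The semaphorin family depended on the setting. With a mean of at least 20 its median was -0.24 and 2 members were 2-fold lower. After centring 5 members were 2-fold lower, and with TPM as deposited 3 were. Sema3c had 7.72 rescaled TPM in DP, against 10.4 in PDGFRβ-S and 40.1 in DN, a ratio of 0.192 (0.164 to 0.225), and Robo2, a receptor for Slit, had 4.92 rescaled TPM in DP, against 14.3 in PDGFRβ-S and 35.1 in DN, a ratio of 0.140 (0.122 to 0.160). Plxnb2 was the exception, with 81.2 rescaled TPM in DP, against 16.8 in PDGFRβ-S and 31.1 in DN. Among ephrins and Eph receptors 2 of 13 were higher and 6 lower, and Efnb2, the arterial ephrin, had 16.3 rescaled TPM in DP, against 63.2 in PDGFRβ-S and 60.4 in DN.

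Genes of neurons and globins had the lowest family medians, at -2.78 and -2.77, and after centring globins were the lower of the pair. Of 18 measured catecholamine and neuronal secretory genes 0 were 2-fold higher and 13 lower in DP, with a median of -2.78 (centred -2.66), and PDGFRβ-S was low as well, at -2.24. Th and Dbh, the enzymes that make dopamine and noradrenaline, were at 0 in DP and PDGFRβ-S and were detected in DN, Th with 0 rescaled TPM in DP, against 0 in PDGFRβ-S and 47.2 in DN and Dbh with 0 rescaled TPM in DP, against 0 in PDGFRβ-S and 99 in DN. Th was at least 123.5-fold lower in DP and Dbh at least 199-fold lower in DP, taking 3 reads in DP as the floor. Stmn3, a microtubule regulator of neurons, had 0 rescaled TPM in DP, against 0 in PDGFRβ-S and 212 in DN, and Cartpt, a neuropeptide of sympathetic neurons, had 0 rescaled TPM in DP, against 0 in PDGFRβ-S and 146 in DN, so that Cartpt was at least 186-fold lower in DP. Th, Dbh and Cartpt are themselves in the sympathetic neuroblast list, so its sum is not separate from their levels.

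The cAMP response element (CRE), a motif of neuropeptide and catecholamine genes, spelled TGACGTCA and the same on both strands, was in 3.74% of windows of the genes 4-fold lower in DP, in 2.76% of the higher genes, in 2.86% of measured genes and in 1.55% of the table. Windows of Cartpt and Th are shown because both genes were at 0 in DP and hold this motif near the start, in capitals (GRCm38.p6, Cartpt at chr13:99900684-99900933, minus strand, Th at chr7:142899996-142900245, minus strand). They too were chosen after the values had been seen.
Cartpt: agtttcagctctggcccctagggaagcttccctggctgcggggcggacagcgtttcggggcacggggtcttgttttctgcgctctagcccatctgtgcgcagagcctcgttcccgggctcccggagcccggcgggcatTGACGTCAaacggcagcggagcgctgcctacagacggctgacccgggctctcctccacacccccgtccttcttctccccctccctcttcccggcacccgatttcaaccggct
Th: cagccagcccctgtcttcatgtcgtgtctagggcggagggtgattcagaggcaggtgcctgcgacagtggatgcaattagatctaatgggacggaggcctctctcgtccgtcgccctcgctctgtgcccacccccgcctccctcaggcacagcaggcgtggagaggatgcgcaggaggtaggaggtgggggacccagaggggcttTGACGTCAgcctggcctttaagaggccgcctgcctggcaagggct
The match lies 112 to 105 bases before the start in Cartpt and 45 to 38 bases before it in Th.

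Genes of the striated sarcomere were more often lower than higher in DP. Of 17 measured sarcomere genes 3 were 2-fold higher and 9 lower, with a median of -1.08 (centred -1.02). Actc1 and Acta1, cardiac and skeletal actins, were higher, Actc1 with 3515 rescaled TPM in DP, against 30.3 in PDGFRβ-S and 579.9 in DN and Acta1 with 658 rescaled TPM in DP, against 95.9 in PDGFRβ-S and 196 in DN, but both are near copies of Acta2 in coding sequence and reads may be shared. Myom1, a protein of the M band, had 28.3 rescaled TPM in DP, against 6.50 in PDGFRβ-S and 1.48 in DN. Tnnc1 and Tnnc2, the troponins that bind calcium, were lower, Tnnc1 with 2.45 rescaled TPM in DP, against 1.00 in PDGFRβ-S and 68.1 in DN, a ratio of 0.0359 (0.0153 to 0.0720), and Tnnc2 with 0.571 rescaled TPM in DP, against 0 in PDGFRβ-S and 74 in DN. Myog, the factor of skeletal muscle differentiation, had 0 rescaled TPM in DP, against 0 in PDGFRβ-S and 82.2 in DN, and was at least 89.6-fold lower in DP. Globins were lower in DP in all 9 measured members, with a median of -2.77 (centred -2.95), and took 0.305% of rescaled TPM in DP, against 4.47% in PDGFRβ-S and 4.24% in DN. Hbb-y, the embryonic beta-like chain, had 664 rescaled TPM in DP, against 25975 in PDGFRβ-S and 22195 in DN, a ratio of 0.0299 (0.0280 to 0.0319). The globins make up nearly all of the summed level of the erythroid list, of which 10 of 11 measured members were 2-fold lower in DP and 1 was higher.

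**Figure D4:**
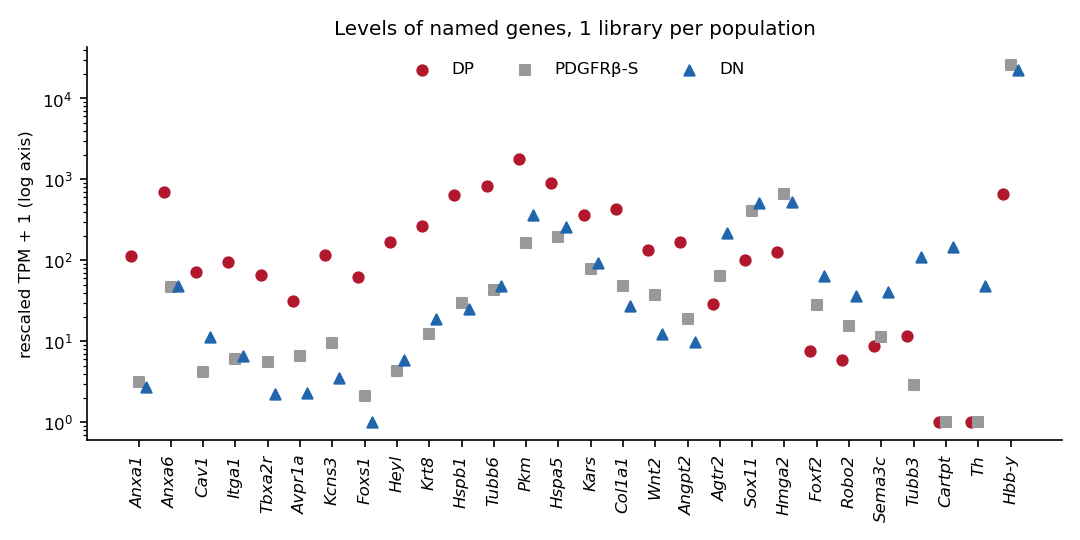
Rescaled TPM plus 1 (y axis, log axis) of genes named in the text (x axis) in DP (circles), PDGFRβ-S (squares) and DN (triangles), 1 library each and therefore without error bars. Genes from Anxa1 to Angpt2 are highest in DP, genes from Agtr2 to Hbb-y are lower in DP than in DN, and PDGFRβ-S lies nearer to DN than to DP for most genes of the first group.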

How the data were processed

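The authors deposited TPM for 1 library each of DP, PDGFRβ-S and DN, that is, read shares per gene length relative to all genes of the table. The submitters' processing notes name TopHat2 2.0.10 and mm10. The study's methods name Cufflinks on RefSeq transcripts for TPM and, separately, reads counted per GENCODE gene. The deposited values fit whole reads over summed exon lengths of GENCODE genes, which neither step gives as described, so how this table was made is not settled. The libraries carry neither strand nor molecular identifiers, so antisense partners cannot be told apart and reads of near-identical genes are uncertain. TPM of nuclear protein-coding genes were divided by their sum and multiplied by 1000000, and log2 ratios were taken after adding 1. Genes with a mean of at least 5 in DP and DN were kept, and 2-fold and 4-fold were the limits used. The named genes were the sort genes, the 25 highest and 25 lowest ratios without predicted genes, and in each family the 3 highest and 3 lowest ratios and the 3 highest levels. For cell type lists they were the 3 highest levels and the markers at 0 in both libraries. Other markers were named after their values had been seen. The 149 families and 11 cell type lists were chosen with earlier results of these data known.

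Reads were recovered as TPM times exon length over 1 constant per library. Of 9450 genes with 50 to 5000 reads in each library, 65.9% came out whole, within 0.0001 of a read, with the summed length of the annotated distinct exons. The rest came out whole with the nearest other length that gave whole reads, a step that also succeeded for 9.73% of 411 genes when the constants were shifted by 3%. These reads served for depth, for the 3-read floor and for 95% intervals, which cover counting error only. GC content and exon length, available for 99.9% of measured genes, were used to centre ratios in 25 bins. Alternatives were pseudocounts of 0.1 and 5, other limits on level or reads, TPM as deposited, removal of the 20 highest genes, a median set to 0, quantile normalization and the omission of predicted genes. Centring by level was added after the data had been seen. On a second sheet, 4 value columns could not be assigned to samples and were not used. The scripts were tested on simulated data and used Python 3.11.15, pandas 2.3.3, numpy 2.4.6, scipy 1.17.1 and matplotlib 3.10.9.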

Additional observations from a re-analysis of the deposited data

Results flagged for a closer look

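RNA outside the nuclear protein-coding genes, which no comparison above uses, held signal above the level in DN. The class of long intergenic RNAs took 10.13% of all TPM as deposited in DP, against 1.098% in PDGFRβ-S and 1.576% in DN. Gm42418, a predicted gene that overlaps ribosomal RNA sequence, alone took 9.441% in DP, against 0.2506% in PDGFRβ-S and 0.6312% in DN. The ribosomal RNA class took 2.908% in DP, against 0.3736% in PDGFRβ-S and 0.51% in DN. In the same libraries the mitochondrial genome took 10.45% in DP, against 25.54% in PDGFRβ-S and 24.4% in DN, and small nucleolar RNAs 0.1093% in DP, against 0.3234% in PDGFRβ-S and 0.3931% in DN.

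Among antisense genes, Prss23os had 135.3 TPM in DP, against 8.057 in PDGFRβ-S and 4.669 in DN. It lies opposite Prss23, a serine protease gene with 264 rescaled TPM in DP, against 24.3 in PDGFRβ-S and 19.3 in DN, and without strand the reads of the pair cannot be told apart. Trpc5os had 16.5 TPM in DP, against 0.0309 in PDGFRβ-S and 0.0289 in DN.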

How the results depend on the processing

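With 1 library per population, depth limits only the lowest genes, and variation between embryos, sorts and libraries was not measured. Counts depended on the scale and the filter. Against 1296 genes 2-fold higher in DP there were 849 with a mean of at least 20. Against 2235 lower there were 3449 with a mean of at least 1, 3813 with no filter, 1016 with a mean of at least 20, 938 with TPM as deposited, 1343 after centring on GC content and exon length and 1486 after centring on level. Against 324 genes 4-fold higher there were 197 with a pseudocount of 5 and 188 with a mean of at least 20. Against 397 genes 4-fold lower there were 735 both with a mean of at least 1 and with no filter, 142 with a mean of at least 20, 130 with a pseudocount of 5, 124 with TPM as deposited, 236 after quantile normalization and 248 after centring on level. The limits on level test more or fewer genes by construction, and for the other settings the cause was not tested.

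Of 26 families with a median of 1 or more either way, between 16 and 26 kept it in each setting. The sign turned for potassium channels (-0.58 with a mean of at least 1, -0.33 with no filter), for S100 proteins (-0.24 and -0.39 in the same settings), for DNA methyltransferases and TET enzymes (0.36 with a mean of at least 20, 0.50 with TPM as deposited) and for neural and myogenic bHLH factors (0.12 with TPM as deposited). The cause was not tested. Of 718 named genes 2-fold apart none turned in any setting that gave a value, and 131 were under 2-fold after centring on GC content and length. Pseudocounts, limits on level or reads and the omission of predicted genes cannot turn the sign of a ratio. Many of these genes were also named for extreme ratios, so the absence of turns says little about stability. No paired analysis was possible because each population has 1 library.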

Other observations

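Ubiquitin ligases and hypoxia genes were lower in DP more often than higher, as were all measured genes (21.5% lower, 12.5% higher). Of 93 measured TRIM and RNF ligases 23 (24.7%) were 2-fold lower and 3 higher, with a median log2 ratio of -0.46 (centred -0.18). Trim47 was an exception, with 19.3 rescaled TPM in DP, against 0.824 in PDGFRβ-S and 0 in DN, and was at least 80.2-fold higher in DP. Of 17 hypoxia response genes 5 (29.4%) were lower and 1 was higher, with a median of -0.56 (centred -0.32). Bnip3, a mitophagy receptor induced by hypoxia, had 60.5 rescaled TPM in DP, against 126 in PDGFRβ-S and 169 in DN, a DP/DN ratio of 0.358 (0.320 to 0.401), while P4ha2, a prolyl hydroxylase that acts on collagen, had 39.7 rescaled TPM in DP, against 4.94 in PDGFRβ-S and 9.44 in DN, a ratio of 4.20 (3.57 to 4.97). Fatty acid genes were split, 10 higher and 5 lower of 27. Elovl1, which elongates saturated chains, had 93.1 rescaled TPM in DP, against 16.1 in PDGFRβ-S and 18.1 in DN, and Scd2, the desaturase of embryonic tissue, had 230.3 rescaled TPM in DP, against 443 in PDGFRβ-S and 535 in DN. Autophagy genes had 3 higher and 3 lower of 25, with Sqstm1, the cargo receptor p62, at 128 rescaled TPM in DP, against 18.7 in PDGFRβ-S and 37 in DN.

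Some predicted genes annotated as protein-coding were lower in DP as a block. All 9 measured predicted genes between bases 3000922 and 3038316 of chromosome 9 (mm10), near its centromeric end, were 4-fold lower, with log2 ratios between -3.44 and -2.70. Reads of near-identical copies cannot be assigned with certainty, and together these genes had 627 rescaled TPM in DP, against 6010 in PDGFRβ-S and 4736 in DN. Gm10800, a predicted gene on chromosome 2, had 278 rescaled TPM in DP, against 3595 in PDGFRβ-S and 2369 in DN. These genes were singled out after their values had been seen.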
